A study of Mus musculus with 6 samples.

Results

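The 10 genes described here are reported to keep stem cells out of the cell cycle, CDK inhibitors left aside, and were followed in mouse hematopoietic stem cells with and without the microcephalin gene Mcph1. They were taken by symbol from the deposited gene table: Foxo1, Foxo3, Txnip, Fbxw7, Gfi1, Hes1, Tob1, Btg1, Ndn and Nr4a2. All 10 had a row among the 11108 genes listed, and all 10 passed the filter on low values. The libraries came from bone marrow of WT mice (3 libraries) and Mcph1-/- mice (3 libraries), with no treatment. Each was an RNA-seq library made from 200 cells by Smart-seq2, which copies whole transcripts from tiny amounts of RNA. The cells were sorted as lineage-negative, Sca-1+, c-Kit+, CD34- and CD150+. The labels give neither the age nor the sex of the mice, nor the deleted part of Mcph1, and they do not say whether libraries came from separate animals. The p-values thus reflect the spread among these 6 libraries alone, and that spread may be technical.

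Adult hematopoietic stem cells divide rarely, and several unrelated proteins restrain them. FOXO factors, held in the cytoplasm by AKT signalling, switch on antioxidant and cell cycle arrest genes when growth signals are low. The ubiquitin ligase subunit FBXW7 marks growth drivers such as MYC for destruction, GFI1 and HES1 are transcriptional repressors, and proteins of the BTG/TOB family bring deadenylases to messenger RNAs. Necdin binds E2F and p53 proteins, and NR4A2 is an orphan nuclear receptor.

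The libraries held 8102605 to 10455908 reads in listed genes. Values are normalised read counts, that is, reads divided by 1 size factor per library, and 1 read is worth 0.820 to 1.08. All 15 fixed markers of stem cell identity and the sort had values, with a sum of 21830 to 26925 in WT and 18253 to 19664 in Mcph1-/-. Slamf1, which encodes the sort marker CD150, was nevertheless listed with 0 reads in WT replicate 1 and 1 read's worth (0.893) in Mcph1-/- replicate 3. Some marker sums of other cells moved with genotype. The 7 neutrophil markers of 12 with values summed to 58564 to 67847 in WT and 3287 to 18724 in Mcph1-/-. The 5 of 7 monocyte markers summed to 10145 to 15240 and 5960 to 7143, and the 11 of 12 erythroid markers to 4633 to 22251 and 31378 to 39523. Lyz2 alone held 7454 to 12241 of the monocyte sums in WT and 4400 to 4628 in Mcph1-/-. S100a8, S100a9, Ngp and Camp were lower without overlap, beside 6.8% of tested genes, while Elane, Mpo and Prtn3 overlapped. Of the erythroid markers 7 were higher and 4 lower, and Car1 alone held 23716 to 31845 of the Mcph1-/- sums. Car1, Klf1, Gata1 and Blvrb were higher without overlap, beside 7.4% of tested genes. The globin genes Hba-a1, Hba-a2 and Hbb-bs were lower without overlap, beside 6.8%, and the globin gene Hbb-bt overlapped. Hba-a1, Hba-a2 and Hbb-bs stood at 8516, 1748 and 2257 in WT replicate 3, but at 581, 55.3 and 65.1 in WT replicate 1. For Hba-a2, WT replicate 2 (39.1) and Mcph1-/- replicate 1 (33.8) nearly met. The sums of megakaryocyte (7 of 7 markers with values) and B cell (3 of 7) markers overlapped between genotypes. For T and NK cells 1 of 8 markers had values, Nkg7, and it overlapped too. Cd34, whose product the sort excludes, had means of 410 in WT and 398 in Mcph1-/- (log2 fold change -0.04, SE 0.60). With Cd48, which is not part of the sort as given, it summed to 320.4 to 631 in WT and 866 to 1360.1 in Mcph1-/-. Cd48, which marks progenitors, stood at 2.17 to 119.5 in WT and 296 to 1153 in Mcph1-/- without overlap (limma unadjusted p = 0.025, adjusted p = 0.626). Every listed gene was read in 4 or more libraries, so a marker at 0 in all 6 could not appear here. The part of other cells in the values below was not tested. Mcph1 itself was read in every library, at 34.4 to 341 in WT and 37.7 to 428 in Mcph1-/-, and with the deleted part unknown this does not check the genotype. In bulk samples, fewer cells that express a gene and less RNA per cell cannot be told apart.

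No quiescence regulator differed between genotypes past the threshold, an adjusted p of 0.05 by limma over 10846 tested genes. Of all tested genes, 0.0369% passed. At an unadjusted p under 0.05 there was 1 of the 10, Ndn, against 7.71% of all tested genes. By edgeR on the recovered reads 0 of 10 passed (0.0184% of all tested genes) and 0 had an unadjusted p under 0.05 (5.47%). By DESeq2 0 passed (2.16%), with 6 of the 10 given no adjusted p, and 0 had an unadjusted p under 0.05 (10.9%). By limma-voom 0 passed (0.00922%) and 2, Ndn and Tob1, had an unadjusted p under 0.05 (8.58%). The WT and Mcph1-/- libraries overlapped for all 10 genes, while 14.2% of tested genes had genotypes that did not overlap (7.4% higher and 6.8% lower in Mcph1-/-). With 0 reads in at least 1 library there were 3 of the 10, Foxo1, Hes1 and Tob1, beside 24.6% of tested genes. By the mean of log2 values 7 of the 10 were higher in Mcph1-/- and 3 (Gfi1, Btg1 and Ndn) were lower, beside 53.8% of all tested genes that were higher. The median log2 fold change of the 10 was 0.12, and that of all tested genes 0.08.

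**Figure D1:**
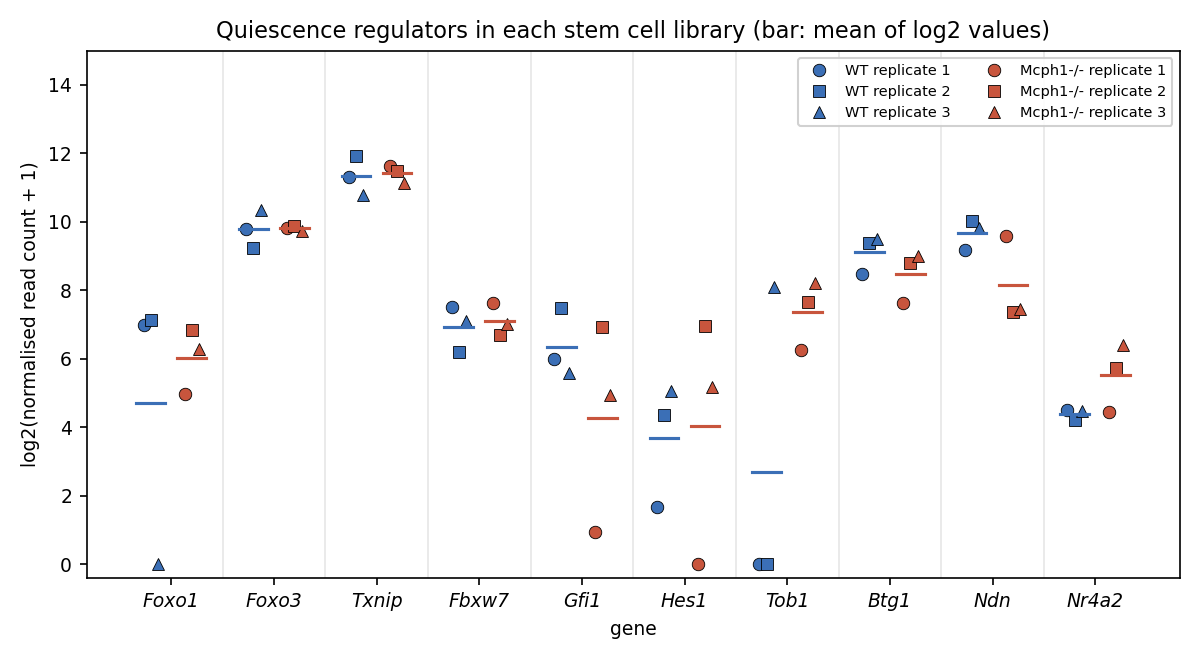
Each point is 1 library, coloured by genotype and shaped by replicate, on a log2(normalised read count + 1) axis, and the bars are means of log2 values (n = 3). WT and Mcph1-/- points overlap for every gene, and Foxo1, Hes1 and Tob1 each have libraries at 0.

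Foxo3 and Txnip, the main FOXO factor of stem cells and a thioredoxin-binding protein that restrains glucose uptake and thioredoxin, had the tightest estimates, close to no difference. Foxo3 (minus strand of chr10:42181841-42276755; all positions are mm10) stood at 890.3, 602 and 1312 in WT replicates 1 to 3 and at 899, 934 and 859 in Mcph1-/- replicates 1 to 3. The 3 Mcph1-/- libraries lay close together, inside the range of WT. The means were 935 ± 357 and 897 ± 37.3 (SD, n = 3). Their log2 fold change was 0.01 (SE 0.34; limma adjusted p = 0.995), and its 95% interval ran from 0.589-fold to 1.73-fold. Whether the spread differed between genotypes was not tested.

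Txnip (chr3:96557957-96561883, plus strand) had the highest level per kb of exon among the 10 (given below), and its normalised read counts were 2541, 3867 and 1782 in WT and 3182, 2864 and 2264 in Mcph1-/-. The highest and the lowest value both belonged to WT, in replicates 2 and 3. On the log2 scale Mcph1-/- differed from WT by 0.08 (SE 0.30; limma adjusted p = 0.958), with a 95% interval from 0.660-fold to 1.69-fold. Changes larger than these bounds in either gene lie outside the intervals, while smaller ones were not detectable with 3 libraries a genotype.

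Foxo1 (chr3:52268336-52353221, plus strand), which encodes another FOXO factor, was far lower and was not read in every library. It stood at 126, 140.1 and 0 in WT and at 30.1, 114 and 77.7 in Mcph1-/-. WT replicate 3, with 0 reads, may hold up to 3 reads' worth, a value of 3.04, and the other WT libraries had 116 and 136 reads. That library pulled the WT mean of log2 values down, so that the log2 fold change was 1.33 (SE 2.12; limma adjusted p = 0.878) although the mean was lower in Mcph1-/- (73.9 ± 42.1 against 88.6 ± 77.1, SD, n = 3). Without WT replicate 3 the log2 fold change was -1.03. A 0 was common at this level: 64.6% of the 500 genes nearest to Foxo1 in mean value had 0 reads in at least 1 library.

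Genes around the FOXO factors were listed as signalling partners and as reported targets. Of 17 tested signalling genes 9 were higher and 8 lower in Mcph1-/-, and their median log2 fold change was 0.10. The medians of 6 of the 10 lists used here (FOXO signalling, FOXO targets, thioredoxin, GFI1, Notch and necdin) changed sign in at least 1 alternative. None of the signalling genes passed by limma, edgeR, DESeq2 or limma-voom, and 0 had an unadjusted limma p under 0.05 (2 by DESeq2, which gave 8 of the 17 no adjusted p). Their smallest p-values belonged to Tsc1, a brake on mTOR signalling (556 in WT and 214 in Mcph1-/-; log2 fold change -1.35, SE 0.60), to Stk11, the kinase LKB1 (1.33, SE 0.66), and to Inpp5d, the phosphatase SHIP1 (-0.63, SE 0.36). Tsc1 and Inpp5d were the 2 genes of this list whose genotypes did not overlap, both lower in Mcph1-/-, where 6.8% of tested genes were lower without overlap. Foxo4 has no values here.

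Of 16 tested FOXO targets 6 were higher and 10 lower, with a median of -0.16. None passed by any of the 4 tools (DESeq2 gave 5 no adjusted p), and 1 had an unadjusted limma p under 0.05, the autophagy gene Map1lc3b (10178 in WT and 7786 in Mcph1-/-; log2 fold change -0.39, SE 0.16). For catalase, Cat, the value was 0.66 (SE 0.32), and Sesn1, a stress-induced inhibitor of mTOR signalling, had -0.54 (SE 0.35). All 3 overlapped between genotypes.

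The promoters of Txnip and Btg1 are shown because they were the 2 among the quiescence regulators that held the core FOXO motif GTAAACA, the letters bound by factors whose own levels are given above. RefSeq promoter windows (GRCm38.p6, 250 bases before to 50 after the start) were at hand for 9 of the 10 genes, 12 windows in all, and Hes1 had none. Capitals mark the motif, on the plus strand of the window in Txnip and as its reverse complement in Btg1. It begins 121 bases before the start of Txnip and 204 bases before that of Btg1.
Txnip, chr3:96557707-96558006, plus strand: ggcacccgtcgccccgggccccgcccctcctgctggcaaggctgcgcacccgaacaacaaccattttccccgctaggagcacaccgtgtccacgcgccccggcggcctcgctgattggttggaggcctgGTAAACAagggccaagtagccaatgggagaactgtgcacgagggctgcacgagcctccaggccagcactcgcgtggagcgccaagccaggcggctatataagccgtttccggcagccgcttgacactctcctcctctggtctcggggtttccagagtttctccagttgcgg
Btg1, chr10:96616751-96617050, plus strand: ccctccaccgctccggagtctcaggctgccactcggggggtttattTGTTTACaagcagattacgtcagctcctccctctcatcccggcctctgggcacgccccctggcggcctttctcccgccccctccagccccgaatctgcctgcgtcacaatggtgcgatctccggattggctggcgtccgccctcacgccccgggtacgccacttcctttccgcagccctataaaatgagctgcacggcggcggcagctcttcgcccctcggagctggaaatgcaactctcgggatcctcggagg

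Searched on both strands, the FOXO letters occurred in 3.65% of 32851 promoter windows of the same length. The letters of 3 other factors among the regulators were searched in the same windows. The HES N-box CACNAG lay in windows of 3 genes (Foxo3, Ndn and Txnip) and in 42.5% of all windows, the NR4A element AAAGGTCA in 0 and in 1.51%, and the GFI1 core AAATCAC in 0 and in 3.20%. The letters of no motif contain those of another. A match is a description of the letters and not a binding site.

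Among TXNIP's partners, Txn1, the thioredoxin it binds, was higher in each Mcph1-/- library than in any WT library. Its values were 3529, 2966 and 3114 in WT and 5424, 4697 and 3537 in Mcph1-/-, so that WT replicate 1 and Mcph1-/- replicate 3 nearly met. The log2 difference was 0.49 (SE 0.20; limma unadjusted p = 0.039, adjusted p = 0.639), and 7.4% of tested genes were higher without overlap. Of the 13 tested genes of this list 8 were higher and 5 lower, with a median of 0.10, and none passed by any of the 4 tools, with no DESeq2 adjusted p for 3 (1, Txn1, had an unadjusted limma p under 0.05). The glucose transporter gene Slc2a1, whose product TXNIP draws from the cell surface, stood at 636 in WT and 206 in Mcph1-/- (log2 fold change -2.15, SE 1.12), and the ubiquitin ligase gene Itch at 532 and 312 (-0.89, SE 0.53).

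Fbxw7, the substrate-binding subunit of the SCF ligase (chr3:84815268-84979198, plus strand), was read in all 6 libraries, at 182, 72.1 and 138 in WT and 198, 102 and 128 in Mcph1-/-. In both genotypes replicate 1 was highest and replicate 2 lowest, and the labels do not tie libraries by number. At 0.17 on the log2 scale (SE 0.87; limma adjusted p = 0.970) the genotypes differed by less than their replicates did. The 95% interval, from 0.282-fold to 4.46-fold, reflects limma's SE, which draws on the spread of other genes at this level. Fbxw7 itself varied less than most of them: its SD of log2 values within genotype was 0.59, where the median of its 500 neighbours in mean value was 2.54, at percentile 8.2.

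Of 14 tested genes of the SCF ligase and its substrates 5 were higher and 9 lower, and the list's median was -0.36. None passed by limma, edgeR or limma-voom, and 2 had an unadjusted limma p under 0.05. These were substrates: Jun, an AP-1 factor, stood at 1195, 593 and 132 in WT and 40.1, 21.3 and 50.9 in Mcph1-/- (log2 fold change -3.65, SE 1.07; limma adjusted p = 0.592), and DESeq2, which gave 5 genes of the list no adjusted p and passed 2.16% of all tested genes, called it. Mycn stood at 1749, 1474 and 1211 in WT and 509.9, 1204 and 580.3 in Mcph1-/- (-1.04, SE 0.37; limma adjusted p = 0.626). Its paralogue Myc differed by 0.20 on the log2 scale (SE 0.16) and overlapped between genotypes. The scaffold gene Cul1 had -0.52 (SE 0.29). Jun, Mycn and Notch1 were the 3 genes of this list whose genotypes did not overlap, all lower in Mcph1-/-, as were 6.8% of tested genes.

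The repressors Gfi1 and Hes1 varied widely inside each genotype. Among the 500 tested genes nearest in mean value, Gfi1 varied less than most (percentile 36.6) and Hes1 more than most (74.4). Gfi1, a zinc finger repressor that limits stem cell division (chr5:107716657-107726036, minus strand), stood at 62.9, 178 and 46.6 in WT and at 0.912, 121 and 29.5 in Mcph1-/-. The value in Mcph1-/- replicate 1 was a single read, while Mcph1-/- replicate 2 exceeded 2 of the WT libraries. Between genotypes the log2 fold change was -2.09 (SE 1.83; limma adjusted p = 0.758), and it was -0.42 without Mcph1-/- replicate 1. Group means were 95.9 ± 71.8 and 50.3 ± 62.5 (SD, n = 3). Exons of Gfi1 overlap A430072P03Rik on the other strand, as those of Foxo1 overlap Gm20402 and those of Txnip Gm15441. With no strand setting given, reads of the 2 genes of such a pair cannot be told apart.

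Hes1, the Notch target that represses transcription through N-box letters (chr16:30064384-30067796, plus strand), stood at 2.17, 19.6 and 32.4 in WT and at 0, 122 and 34.8 in Mcph1-/-. Mcph1-/- replicate 1 with 0 reads may hold up to 3 reads' worth, a value of 2.74, and Mcph1-/- replicate 2 held 149 of the 241 reads of the gene. In the fit the log2 fold change was 0.34 (SE 2.17; limma adjusted p = 0.975). It was -1.11 without Mcph1-/- replicate 2 and 2.36 without Mcph1-/- replicate 1, so single libraries set its direction.

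Partners of both repressors were tested without a call. Of 10 tested GFI1 partners 3 were higher and 7 lower, with a median of -0.32. None passed by any of the 4 tools (DESeq2 gave 4 no adjusted p), and 1 had an unadjusted limma p under 0.05, Spi1, the myeloid master factor PU.1 (1494 in WT and 837 in Mcph1-/-; log2 fold change -0.81, SE 0.35). The corepressor genes Rcor1 and Hdac1 had -1.89 (SE 1.26) and -0.90 (SE 0.67), and the paralogue Gfi1b, at 3063 in WT and 2642 in Mcph1-/-, had -0.18 (SE 0.25). The 5 monocyte markers with values also had log2 fold changes below 0. Of these, Lyz2 alone was lower without overlap (-1.15, SE 0.20), beside 6.8% of tested genes, and Ms4a6c barely differed (-0.04, SE 0.46). The part of monocytes in the value of Spi1 was not tested. Of 17 tested Notch pathway genes 8 were higher and 9 lower, with a median of -0.13. None passed by any of the 4 tools, although DESeq2 gave 11 of the 17 no adjusted p, and 0 had an unadjusted limma p under 0.05 (1 by limma-voom). The smallest p-values belonged to Maml3 (4.24, SE 2.04), Adam17 (-3.12, SE 2.08) and Tle3 (3.24, SE 2.18), each with 0 reads in at least 1 library. The receptor gene Notch1 stood at 59.6, 157 and 128 in WT and 48.3, 49.2 and 35.7 in Mcph1-/- (-1.25, SE 1.13; limma adjusted p = 0.764). Rbpj, which encodes the DNA-binding partner of Notch, had 0.49 (SE 1.04).

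**Figure D2:**
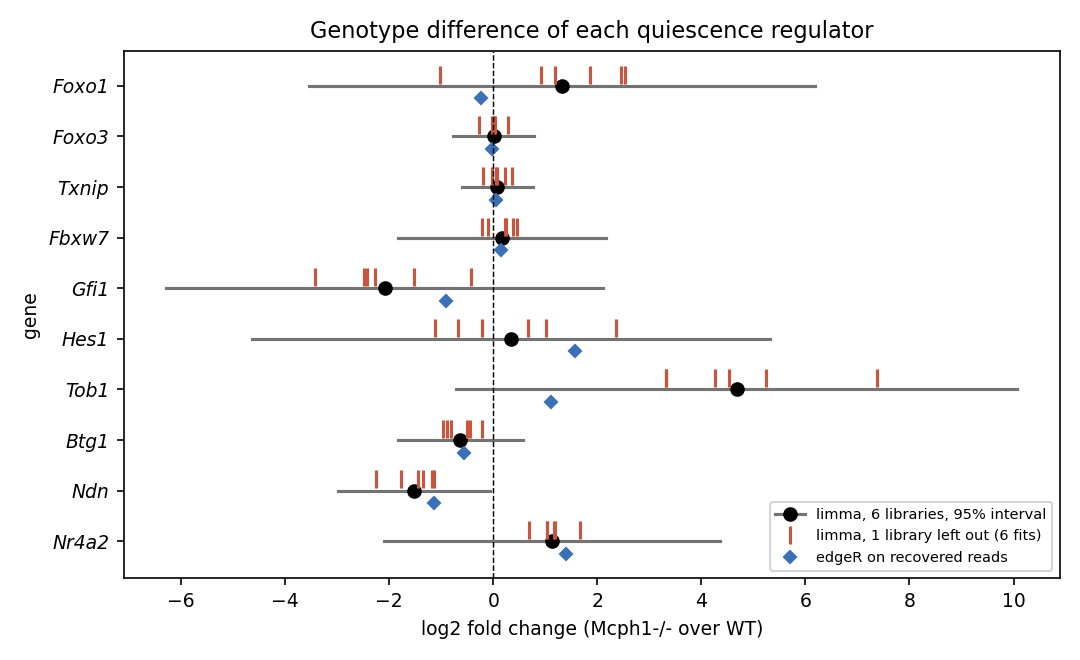
Black points are limma log2 fold changes (Mcph1-/- over WT) from 6 libraries with 95% intervals, red ticks the 6 fits that each leave out 1 library, and blue diamonds edgeR on recovered reads. The interval of Ndn, from -2.99 to -0.06, is the one of the 10 that lies on one side of 0, and the ticks of Foxo1, Foxo3, Txnip, Fbxw7 and Hes1 fall on both sides.

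Tob1 and Btg1 belong to one family of antiproliferative proteins, and their estimates pointed in opposite directions, neither past the threshold. Tob1 (chr11:94211454-94215495, plus strand) stood at 0, 0 and 274 in WT and at 75.7, 202 and 296 in Mcph1-/-. The 2 WT libraries without reads may each hold up to 3 reads' worth, values of 3.25 and 3.09, whereas WT replicate 3 held 271 reads and exceeded 2 of the Mcph1-/- libraries. The log2 fold change was 4.68 (SE 2.35; limma adjusted p = 0.662), much larger than the ratio of the means, 2.09. From the recovered reads it was 1.10 by edgeR, 1.06 by DESeq2 and 5.33 by limma-voom, which averages log values (unadjusted p = 0.046). Without WT replicate 3 both remaining WT libraries were at 0 and the limma adjusted p was 0.206, the lowest over all alternatives, which reached 0.9998 with edgeR.

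Btg1 (chr10:96617006-96622809, plus strand) was read in every library, at 352, 669 and 729.9 in WT and at 199, 449 and 509.8 in Mcph1-/-. WT replicate 1 lay below 2 of the Mcph1-/- libraries. The means were 584 ± 203 and 386 ± 165 (SD, n = 3), and the log2 fold change was -0.64 (SE 0.52; limma adjusted p = 0.744), with a 95% interval from 0.279-fold to 1.48-fold. Without Mcph1-/- replicate 1 it was -0.22.

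Of 18 tested genes of the wider family and of the CCR4-NOT deadenylase 5 were higher and 13 lower, with a median of -0.13. None passed by any of the 4 tools, although DESeq2 gave 9 of the 18 no adjusted p, and 0 had an unadjusted limma p under 0.05 (1 by DESeq2). Btg3 and Cnot4 were the 2 genes of this list whose genotypes did not overlap, both lower in Mcph1-/-, as were 6.8% of tested genes. Cnot4, a ubiquitin ligase that binds the complex, stood at 750 in WT and 445 in Mcph1-/- (-0.78, SE 0.35). Btg3 was low, at 19.5, 30.9 and 83.0 in WT and 10.9, 16.4 and 7.14 in Mcph1-/- (-1.67, SE 1.49). Cnot11 (4.29, SE 2.06) and the deadenylase Cnot6 (3.74, SE 1.97) each had at least 1 WT library at 0. The relatives Btg2, at 108, 76.2 and 93.1 in WT and 0, 199 and 0 in Mcph1-/-, and Tob2, at 97.1 in WT and 49.3 in Mcph1-/-, had log2 fold changes of -3.99 (SE 2.27) and -1.26 (SE 1.31).

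Ndn came nearest to a difference. Necdin, its product, is an imprinted growth suppressor of the MAGE family, and the gene (ENSMUSG00000033585) spans chr7:62346569-62350262 (mm10, plus strand). It stood at 582, 1033 and 895 in WT and at 771, 166 and 176 in Mcph1-/-. Mcph1-/- replicates 2 and 3 lay far below every WT library, and Mcph1-/- replicate 1 lay above WT replicate 1. The means were 837 ± 231 and 371 ± 346 (SD, n = 3). On the log2 scale the difference was -1.52 (SE 0.64; limma unadjusted p = 0.043, adjusted p = 0.643), lower in 2 of 3 Mcph1-/- libraries than in all WT libraries, and it failed the correction over all genes. It ranged from -2.25 without Mcph1-/- replicate 1 to -1.14 without Mcph1-/- replicate 2, with adjusted p-values of 0.525 to 0.858 by limma over the 6 fits that leave out 1 library.

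Of 7 tested partners and relatives of necdin 3 were higher and 4 lower, with a median of -0.31. None passed by any of the 4 tools (DESeq2 gave 1 no adjusted p), and 1 had an unadjusted limma p under 0.05. It was Nsmce3, a MAGE protein of the SMC5-SMC6 complex, at 1001, 1581 and 702 in WT and 452, 648 and 575 in Mcph1-/- (log2 fold change -0.91, SE 0.38; limma adjusted p = 0.642), with no overlap. Maged2 had -0.65 (SE 0.38) and Trp53, the p53 gene, 0.35 (SE 0.25), both overlapping between genotypes. Magel2, the neighbour of Ndn in the imprinted cluster, has no values here.

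Nr4a2, an orphan nuclear receptor of the immediate early class (chr2:57106830-57124003, minus strand), was low throughout, at 21.7, 17.5 and 21.3 in WT and 21.0, 51.7 and 83.9 in Mcph1-/-. These were 17 to 21 reads in WT and 23, 63 and 94 in Mcph1-/-. The 3 WT libraries lay close together, Mcph1-/- replicate 1 fell among them, and the other 2 stood above. Between genotypes the log2 difference was 1.13 (SE 1.41; limma adjusted p = 0.834), and edgeR gave 1.40. The SE borrows from other genes of this level: within WT the SD of the log2 values of Nr4a2 was 0.16, at percentile 2.4 of its 500 neighbours. Of 7 tested genes of this family's list 2 were higher and 5 lower, with a median of -0.24. None passed by any of the 4 tools, although DESeq2 gave 5 of the 7 no adjusted p, and 0 had an unadjusted p under 0.05 by any of them. Crem, a cAMP-responsive factor, stood at 245, 152 and 261 in WT and 0, 55.0 and 129 in Mcph1-/- (-3.47, SE 1.89). Nr4a1 and Nr4a3 have no values here.

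Levels of different genes were compared per kb of annotated exon. Txnip led at 880.5 ± 234 per kb (SD over 6 libraries) and lay between percentiles 87.6 and 93.3 of the 10684 genes with a gene model. Next came Ndn (163 ± 99.3 per kb), Foxo3 (121 ± 30.1), Btg1 (91.9 ± 37.4) and Tob1 (61.7 ± 58.4). Gfi1 (22.9 ± 20.4), Fbxw7 (19.4 ± 6.75), Hes1 (17.3 ± 22.1), Foxo1 (9.38 ± 6.48) and Nr4a2 (8.91 ± 6.55) had the lowest means. Txnip exceeded Ndn in all 6 libraries and by more than the larger SD of the pair. For every other pair of neighbours in the order the gap between means was smaller than the larger SD, so their order is not resolved. Foxo3 exceeded Foxo1 per kb in every library, since its lowest value (79.5 per kb) was above the highest of Foxo1 (16.2 per kb).

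**Figure D3:**
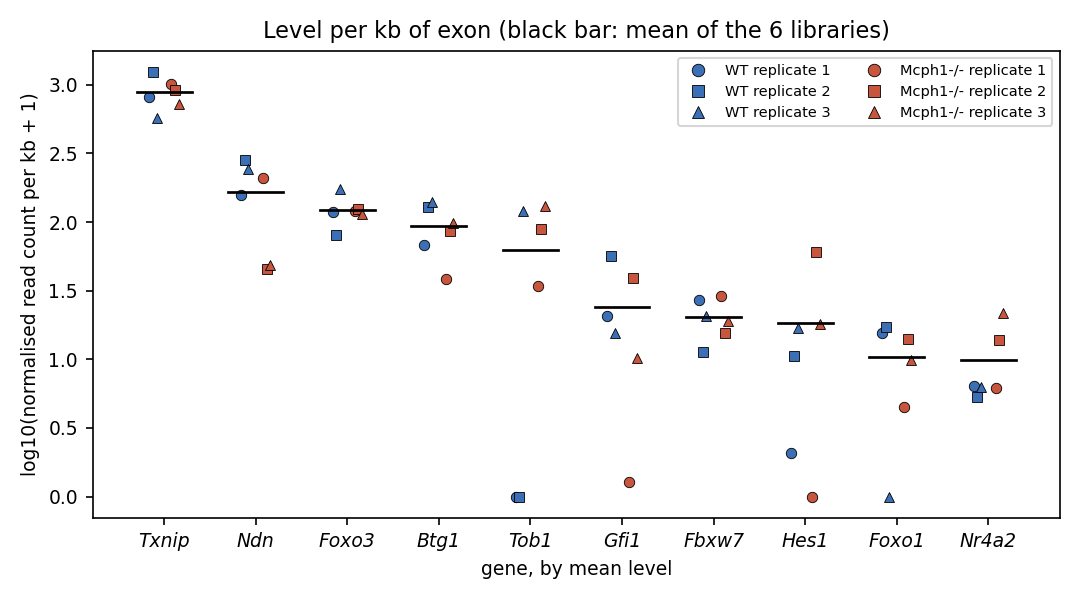
Points are log10(normalised read count per kb of exon + 1) in each of 6 libraries, by genotype and replicate, and black bars mark the log of the mean. Txnip (880.5 per kb) stands apart, while the ranges of neighbouring genes below it overlap.

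The 10 genes differed in how much they varied between libraries of 1 genotype. Each was set beside the 500 tested genes nearest in mean value, by the SD of log2(value + 1) within genotype. Fbxw7 (percentile 8.2) and Nr4a2 (14.0) varied less than most genes at their level. Txnip (83.2), Tob1 (81.6), Ndn (78.0) and Hes1 (74.4) varied more than most, and Foxo1 (65.0), Btg1 (45.2), Gfi1 (36.6) and Foxo3 (34.2) lay between. For Txnip the SD was 0.43 beside a median of 0.29 among its neighbours, and for Tob1 3.38 beside 2.46. The SD of Foxo3 was 0.56 in WT and 0.06 in Mcph1-/- (percentiles 58.2 and 2.4), and that of Ndn was 0.43 in WT and 1.25 in Mcph1-/- (29.6 and 94.0). Extremes fell most often in WT replicate 2, in both directions. It held the highest value of 4 genes (Foxo1, Txnip, Gfi1 and Ndn). The lowest value fell there for 4 others, Foxo3, Fbxw7, Nr4a2 and Tob1 (for Tob1 tied with WT replicate 1, both at 0). Mcph1-/- replicate 1 held the lowest value of 3 (Gfi1, Hes1 and Btg1).

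**Figure D4:**
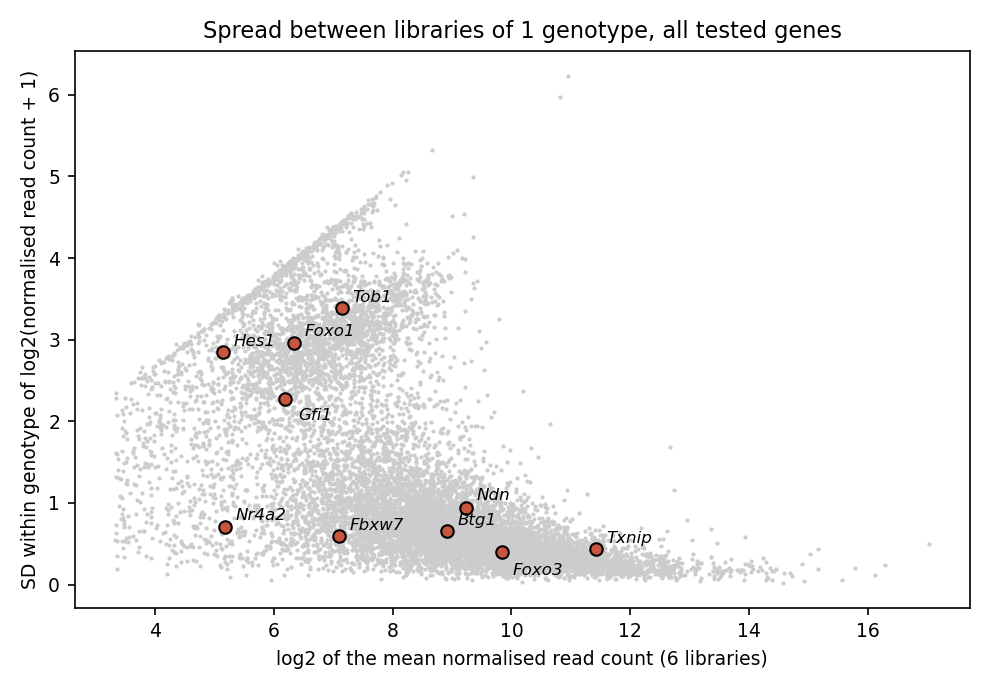
Each grey dot is 1 of 10846 tested genes and red dots are the quiescence regulators, with log2 mean value on the horizontal axis and the SD of log2(value + 1) within genotype on the vertical axis. Tob1, Foxo1, Hes1 and Gfi1 sit in the upper cloud, where single libraries are at or near 0, and Fbxw7 (0.59) and Nr4a2 (0.71) sit low for their level.

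Genes of dividing cells were set beside these regulators. All 21 tested genes of the list had log2 fold changes above 0, beside 53.8% of all tested genes, at a median of 1.06. Of the 21, 11 were higher in Mcph1-/- without overlap, where 7.4% of tested genes were. The size varied, and some hardly differed: Pcna had 0.13 (SE 0.54), Aurkb 0.23 (SE 0.73) and Cdk1 0.30 (SE 0.30). None passed by limma, edgeR or limma-voom, 8 had an unadjusted limma p under 0.05 (7.71% of all tested genes), and DESeq2 called 6 (2.16% of all tested genes) and gave 3 no adjusted p. Ube2c, a ubiquitin-conjugating enzyme of mitosis, stood at 335, 690.3 and 253 in WT and 2047, 2064 and 2044 in Mcph1-/-. The helicase gene Mcm6 stood at 1251, 1100.3 and 1055 in WT and 2159, 2116 and 2790.1 in Mcph1-/-. The 10 quiescence regulators held 0 genes without overlap, beside 14.2% of tested genes in either direction, a share at which 10 genes are too few to read a 0. The difference between the 2 lists was not tested.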

How the data were processed

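RNA-seq was measured in 3 WT and 3 Mcph1-/- libraries of sorted stem cells. Named in the submitters' processing notes, without roles, are HISAT2, featureCounts, Trim Galore 0.6.6, DESeq2 and mm10. For the annotation release and strandedness the sources used here give nothing. The authors deposited a signal: reads per gene over a library's size factor. The values show this, as 100% are whole multiples of 1 read's worth within 0.001 reads. Every gene in the table was read in 4 or more libraries, and 444 genes have no symbol.

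The test was limma-trend 3.58.1 on log2(value + 1) with genotype as the term, for genes with a mean of at least 10 (10846), with Benjamini-Hochberg adjustment. Fold changes are on that scale: the added 1 shrinks those of low genes, but 1 library with few or 0 reads can enlarge them or turn their sign. edgeR 4.0.16, DESeq2 1.42.0 and limma-voom were run on recovered reads, in R 4.3.3, and limma, edgeR and DESeq2 were tested on simulated data. Floors (3 reads) cover counting error only. Exon lengths and positions come from GENCODE vM21 (mm10), with 96.2% of genes matched by identifier.

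Members and lists were chosen with earlier results of these data known. All 10 members, up to 3 genes with the smallest p of each list, and close relatives were named. Slamf1, Cd34, Cd48, Btg3, Pcna, Aurkb, Cdk1 and the single neutrophil, monocyte, erythroid and T and NK cell markers were named after their values were seen.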

Additional observations from a re-analysis of the deposited data

How the results depend on the processing

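No quiescence regulator passed under any of the alternatives that could be fitted, and the number higher in Mcph1-/- was 5 to 7. Genes past the threshold numbered 4 with limma over all genes, 2 by edgeR, 234 by DESeq2 and 1 by limma-voom, and 1 to 4 when 1 library was left out (1 without WT replicate 1 or 2, 2 without Mcph1-/- replicate 1). Gfi1, Tob1, Btg1, Ndn and Nr4a2 kept their direction in every alternative fitted. The other 5 did not, and the cause was not tested. Foxo1 had a log2 fold change of -0.24 by edgeR, -0.26 by DESeq2 and -1.03 without WT replicate 3 (up to 2.54 with other libraries left out). Foxo3 had -0.027 by edgeR, -0.061 by DESeq2, -0.27 without WT replicate 2 and -0.017 if Mcph1-/- replicate 2 was left out (up to 0.29). Txnip had -0.19 without WT replicate 3 and -0.028 without Mcph1-/- replicate 1 (up to 0.37), and Fbxw7 -0.21 without WT replicate 2 and -0.10 without Mcph1-/- replicate 1 (up to 0.45). Hes1 had -0.68 without WT replicate 1, -1.11 without Mcph1-/- replicate 2 and -0.22 with Mcph1-/- replicate 3 left out (up to 2.36). With a mean value of at least 50, Hes1 and Nr4a2 were not tested. List medians were unstable: 6 of 10 changed sign in at least 1 alternative. With libraries left out they ran from -0.20 to 0.25 for FOXO signalling (-0.17 by edgeR and -0.20 by DESeq2), -0.33 to 0.03 for FOXO targets, -0.44 to 0.46 for the thioredoxin list, -0.54 to 0.08 for GFI1 partners, -0.26 to 0.29 for Notch and -0.67 to 0.03 for necdin partners. Those of the SCF, BTG/TOB, NR4A and dividing cell lists kept their sign, the NR4A median at -1.55 to -0.02 with libraries left out, -1.13 by edgeR and -1.16 by DESeq2. Same-numbered libraries did not deviate together (correlations across genes of -0.01, 0.02 and -0.03, and not every library correlated best with its own number). With the replicate number as a block, 3 genes passed and 0 of the 10 did. Hes1 and Nr4a2 had the fewest reads of the 10, 241 and 238 over the 6 libraries.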
